A study of Arabidopsis thaliana with 4 samples.

Results

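Terpene synthase genes grouped with TPS-CIN, the cineole synthase gene of Arabidopsis thaliana, were followed on Affymetrix ATH1 arrays in the allantoin-accumulating mutant aln-1. The group was defined as the probe set mapped to TPS-CIN by symbol and the single-gene probe sets of 9 further monoterpene, sesquiterpene and diterpene synthase loci. Of these 10 genes, 3 had a named probe set: TPS-CIN, AT3G25810 and AT5G44630. The other 7, TPS10, TPS03, TPS02, TPS04, TPS14, TPS21 and TPS12, were not analysed here. With a second TPS-CIN probe set the group held 4 of the 22746 probe sets of the table. The genes were chosen with earlier results of these arrays known, from the same comparison of aln-1 with wild type, so their values are given as a description and without a test.

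Terpene synthases take prenyl diphosphates of different chain lengths and turn them into volatile monoterpenes, sesquiterpenes and diterpenes. The precursors come from the plastidial methylerythritol phosphate (MEP) pathway and the cytosolic mevalonate pathway, and prenyltransferases join them into the substrates. In Arabidopsis many terpene synthases are made in flowers or roots, where their products act in defence and in the attraction of insects. TPS-CIN stands for a pair of closely related neighbouring loci, AT3G25820 and AT3G25830, whose enzyme makes the monoterpene ether cineole and is best known from roots. Genes of precursor supply, prenyltransferases, further terpene synthase loci and markers of root, flower and leaf were therefore also followed.

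RNA came from aerial parts of seedlings harvested 2 weeks after germination. The 2 wild type arrays carried Col-0, and the 2 aln-1 arrays carried Col-0 plants with the aln-1 allele of ALN, the gene of allantoinase. All seedlings grew on solid half-strength MS medium with 1% sucrose at 22 °C, with 16 h of light and 8 h of darkness, and the labels name no further treatment. The labels call the arrays biological replicates and do not give the number of seedlings pooled in each. The comparison asked which transcripts differ in plants that accumulate allantoin. Each value is a log2 signal from which the median of that probe set over all 4 arrays has been subtracted. By this centring the middle pair of values of a probe set mirror each other around 0, and levels cannot be compared between genes or used to call a gene absent. ALN itself was at 1.59 and 2.03 on the wild type arrays and at -1.59 and -1.72 on the aln-1 arrays; where the mutation lies relative to its probes is not given in the labels. Array medians lay between -0.04 and 0.04, and the median difference over all probe sets was -0.08.

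TPS-CIN stood far apart between the genotypes. On its single-gene probe set, which is assigned to AT3G25830, the wild type arrays were at -2.34 and -1.87 and the aln-1 arrays at 1.87 and 2.12. The mutant arrays thus stood wholly above the wild type arrays, and those of the same genotype lay close together. Wild type averaged -2.11 ± 0.33 and aln-1 2.00 ± 0.17 (SD, n = 2 arrays each). The log2 difference was 4.104 (SE 0.24), or 17.2-fold. The closest pair of an aln-1 and a wild type array was still 3.75 apart on the log2 scale. Over all probe sets, 78 had a larger log2 difference in this direction. Leaving out each array in turn gave log2 differences of 3.87 to 4.34.

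The second TPS-CIN probe set is assigned to both AT3G25820 and AT3G25830, and its type marks probes that more than a single transcript can bind. Its wild type arrays were at -1.09 and -0.85 and its aln-1 arrays at 0.85 and 1.16. The order of the arrays was the same as on the first probe set, again without overlap. Wild type averaged -0.97 ± 0.17 and aln-1 1.01 ± 0.22 (SD, n = 2 arrays each). The log2 difference was 1.98 (SE 0.20), or 3.93-fold. The probe sets shared the direction and disagreed in size: the single-gene probe set gave a fold change 4.37 times as large, a gap of 2.13 on the log2 scale. Whether the copies of TPS-CIN differ in their response cannot be told from a probe set that both share.

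AT3G25810, the terpene synthase gene nearest to the TPS-CIN copies in the RefSeq gene order with only a pseudogene between, differed little. Its wild type arrays were at -0.06 and -0.12 and its aln-1 arrays at 0.06 and 0.90. The genotypes did not overlap, but aln-1 replicate 1 lay only 0.12 above the higher wild type array. Wild type averaged -0.09 ± 0.04 and aln-1 0.48 ± 0.59 (SD, n = 2 arrays each), and the log2 difference was 0.57 (SE 0.35), or 1.49-fold. Its size rested on aln-1 replicate 2: the log2 difference was 0.15 without that array and 0.99 without aln-1 replicate 1.

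AT5G44630, the remaining terpene synthase gene, was high on a single array. Its wild type arrays were at -0.82 and 0.54 and its aln-1 arrays at 4.28 and -0.54. The genotypes overlapped, because aln-1 replicate 2 lay between the wild type arrays. Wild type averaged -0.14 ± 0.96 and aln-1 1.87 ± 3.41 (SD, n = 2 arrays each), and the log2 difference of 2.01 had an SE of 1.94. Without aln-1 replicate 1 the log2 difference was -0.40, so neither its size nor its direction held over the arrays; it was 4.42 without aln-1 replicate 2 and 1.33 without wild type replicate 1. Judged from the rounding of its values it belonged to the dim class of probe sets, with signals below 16 on the lowest array, whose median within-genotype SD was 0.94 against 0.14 in the bright class. TPS-CIN was in the middle class on its single-gene probe set and in the bright class on the shared one, and AT3G25810 was in the bright class.

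**Figure D1:**
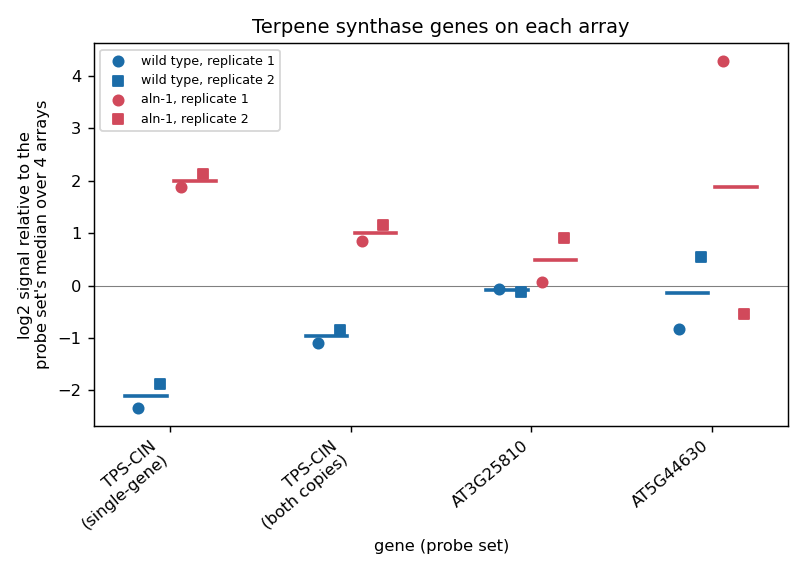
Log2 signal relative to the probe set's median over 4 arrays (vertical axis) for the 4 probe sets of TPS-CIN, AT3G25810 and AT5G44630 (horizontal axis). Blue points are wild type arrays and red points aln-1 arrays, circles replicate 1 and squares replicate 2, and short lines are the means of 2 arrays. Both TPS-CIN probe sets separate the genotypes widely, AT3G25810 barely, and AT5G44630 is at 4.28 on aln-1 replicate 1 and at -0.54 on aln-1 replicate 2.

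Of the 3 genes, 1, TPS-CIN, was at least 2-fold higher in aln-1 in all 4 pairs of an aln-1 and a wild type array, a property of 4.67% of all probe sets in that direction. The mutant arrays stood wholly above the wild type arrays for 2 of the 3, TPS-CIN and AT3G25810, against 25.2% of all probe sets. The median log2 difference of the 3 genes was 2.01, that of AT5G44630, and ranged from 0.99 to 3.98 with each array left out in turn, so it describes the group poorly. At a Benjamini-Hochberg adjusted p under 0.05 in limma, fitted on the whole table, 0 of the 3 were called, while 0.255% of probe sets were. With priors fitted within brightness classes 1 of the 3 was called, against 910 of all 22746 probe sets in either direction. Since these genes were chosen from this same contrast, nothing is read from these counts.

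The named genes that flank the stretch from AT3G25810 to the TPS-CIN copies had lower, not higher, values in aln-1. AT3G25805, which precedes AT3G25810, had a log2 difference of -0.77 (SE 0.22). The genes after the second TPS-CIN copy, AT3G25840 and AT3G25850, had log2 differences of -0.30 (SE 0.17) and -0.97 (SE 0.62), the latter in the dim class. Without wild type replicate 1 the log2 difference of AT3G25850 was -0.20, without wild type replicate 2 it was -1.74, and that of AT3G25840 was -0.15 without aln-1 replicate 2. For each of these the mutant arrays stood wholly below the wild type arrays, opposite in direction to TPS-CIN, which lies between them. The separation was narrow at AT3G25840 and AT3G25850, where the closest array pairs differed by only -0.14 and -0.08. At AT3G25805 the closest pair differed by -0.44. None of the 10 genes with a named probe set within 2 places of any of the terpene synthase loci passed in limma, against 0.255% of all probe sets. Of these 10, 3 had an unadjusted limma p under 0.05, against 23.4% of all probe sets. The widest difference was that of AT4G16710, which lies near TPS02: its wild type arrays were at -1.16 and -1.32 and its aln-1 arrays at 1.35 and 1.16. Its log2 difference was 2.49 (SE 0.16, limma adjusted p = 0.0583). With priors fitted within brightness classes it passed, with a limma adjusted p of 0.0183, in a setting that called 2.41% of all probe sets higher, and it also passed with the dim class left out. It was the 1 neighbour whose 4 array pairs were each at least 2-fold apart. Of the 10 neighbours, 3 had their mutant arrays wholly above, 4 wholly below and 3 overlapping, against 25.2% and 34.9% of all probe sets above and below.

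Further terpene synthase loci gave a mixed picture with several large differences upwards. Of 21 such loci, 15 had a single-gene probe set; the annotation names these by locus alone, and their place on the list rests on general knowledge of the family. None of the 15 passed in limma on the whole table, against 0.255% of all probe sets, and their limma adjusted p lay between 0.0721 and 0.913. An unadjusted limma p under 0.05 was found for 4 higher and 1 lower, against 11.1% and 12.3% of all probe sets. The mutant arrays stood wholly above the wild type arrays for 6 genes, wholly below for 2, and the arrays overlapped for 7, against 25.2% above and 34.9% below over all probe sets. In 4 genes, each higher in aln-1, every array pair was at least 2-fold apart, as in 4.67% of all probe sets. The median log2 difference was 0.24, against -0.08 over all probe sets.

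The largest log2 difference among them was 3.52 (SE 0.53), at AT3G14520, whose wild type arrays were at -2.38 and -1.30 and whose aln-1 arrays were at 2.06 and 1.30. It was in the dim class, and its limma adjusted p was 0.100. AT1G31950 had tighter arrays, at -1.06 and -1.01 in wild type and at 1.01 and 1.36 in aln-1. Its log2 difference of 2.21 (SE 0.19) carried the smallest limma adjusted p of the list, 0.0721. When limma's variance priors were fitted within brightness classes, AT1G31950 was the 1 gene of the list that passed, with an adjusted p of 0.0331, while that setting called 2.41% of all probe sets as higher.

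AT5G48110 was at -0.84 and -0.71 in wild type and at 0.71 and 1.50 in aln-1, a log2 difference of 1.88 (SE 0.34). AT1G33750 was at -1.30 and -0.51 in wild type and at 0.51 and 0.93 in aln-1, a log2 difference of 1.63 (SE 0.37). In both, the aln-1 arrays lay above the wild type arrays and the limma adjusted p was 0.118 and 0.146. AT3G29110, in the dim class, differed by 1.55 (SE 0.82), with wild type replicate 2 far below the other arrays at -2.19. AT3G32030 differed by 0.91 (SE 0.34), on a probe set of the type that similar transcripts can share. On the other side, AT1G70080 was at 0.53 and 0.25 in wild type and at -0.97 and -0.25 in aln-1, a log2 difference of -1.001 (SE 0.33). AT4G20200, also in the dim class, differed by -0.92 (SE 0.57) with overlapping arrays. With an array left out, AT3G29110 was at 0.53 without wild type replicate 2, AT3G32030 at 0.57 without wild type replicate 1, AT4G20200 at -0.40 without wild type replicate 2 and AT1G70080 at -0.64 without aln-1 replicate 1. The remaining 7 genes had log2 differences between -0.47 and 0.64, and in 6 of them the arrays overlapped.

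**Figure D2:**
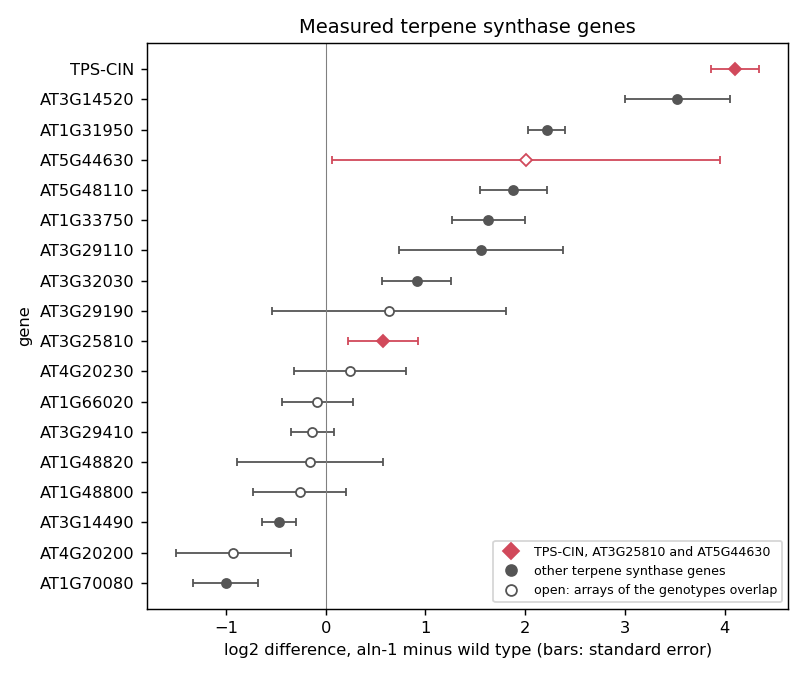
Log2 difference of aln-1 minus wild type (horizontal axis, bars are standard errors from the limma fit, 2 arrays a genotype) for the 18 measured terpene synthase genes (vertical axis, sorted). Red diamonds are TPS-CIN (its single-gene probe set), AT3G25810 and AT5G44630, grey circles the 15 further loci, and open symbols mark genes whose arrays overlap between the genotypes. TPS-CIN, at 4.104, and AT3G14520, at 3.52, lie farthest to the right, and the lowest gene is at -1.001.

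Genes that supply the substrates were covered thinly. The list of the MEP pathway and the isopentenyl diphosphate isomerases held 11 genes, of which 0 had their own named probe set, and it was not analysed here. Of the 9 mevalonate pathway genes, 2 were measured, and both had higher values in aln-1. AT1G31910 was at -0.60 and -1.01 in wild type and at 0.60 and 0.70 in aln-1, a log2 difference of 1.45 (SE 0.21, limma adjusted p = 0.0973). AT3G54250 was at -0.56 and -0.50 in wild type and at 0.50 and 0.54 in aln-1, a log2 difference of 1.05 (SE 0.13, limma adjusted p = 0.0881). For each, all 4 pairs of an aln-1 and a wild type array were at least 2-fold apart, a property of 8.21% of all probe sets in either direction.

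Prenyltransferase genes went in different directions. Of 14 on the list, 4 were measured. AT2G18620 was at -1.69 and -0.90 in wild type and at 0.90 and 1.35 in aln-1, a log2 difference of 2.42 (SE 0.37, limma adjusted p = 0.102). Its array pairs, too, were each at least 2-fold apart, which made 3 of the 6 measured genes of both lists, against 4.67% of all probe sets. AT3G29430 differed by 1.14 (SE 0.58), AT3G32040 by -0.79 (SE 0.44) and AT3G20160 by -0.79 (SE 0.68), the last in the dim class with overlapping arrays. These sizes rested on single arrays: AT3G29430 was at 0.41 without wild type replicate 1 and 1.86 without wild type replicate 2, and AT3G32040 at -0.27 with replicate 2 of the mutant left out and -1.31 with its replicate 1 left out. The sign of AT3G20160 turned without wild type replicate 2, to 0.068. Over both lists 0 of 6 measured genes passed in limma, against 0.255% of all probe sets, and 3, all higher, had an unadjusted p under 0.05, against 11.1%. With priors fitted within brightness classes 1 of the 6, AT1G31910, passed with an adjusted p of 0.0377, against 2.41% of all probe sets called higher. The median log2 difference of the 6 was 1.09.

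Terpene synthase and prenyltransferase genes that lie close together in the RefSeq gene order did not differ alike in the 2 measured cases, which were picked out after the values were seen. AT3G32030 and its neighbour AT3G32040, 3 places apart, had log2 differences of 0.91 and -0.79. AT3G29410 and AT3G29430, 2 places apart, had -0.13 and 1.14, and the values of both prenyltransferase genes rest on single arrays as given above.

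Enzymes that modify terpenes and factors that control their synthesis were barely covered. CYP71B31, the 1 measured of 8 cytochrome P450 genes on the list, differed by 1.61 (SE 0.99) with overlapping arrays, and by 0.43 without wild type replicate 2 and 2.78 without wild type replicate 1. MYC3 and MYC4, transcription factors of the jasmonate response and the 2 measured of 7 regulators, differed by 0.13 (SE 0.14) and -0.05 (SE 0.18), the sign of MYC4 turning with an array left out. None of these 3 passed in limma over all probe sets or at an unadjusted limma p under 0.05, against 0.255% and 23.4% of all probe sets. With priors fitted within brightness classes 0 passed, against 910 of all 22746 probe sets called in either direction.

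Markers of other tissues were followed beside TPS-CIN, and 0 of 9 passed in limma, against 0.255% of all probe sets. Of 12 root markers 3 were measured, and all 3 had mutant arrays wholly above the wild type arrays, as had 25.2% of all probe sets. EXPA7, a root hair expansin gene, was at -1.27 and -0.44 in wild type and at 0.44 and 0.71 in aln-1. EXPA18, its close relative, was at -0.67 and -0.37 in wild type and at 0.37 and 0.86 in aln-1. PYK10, which encodes a beta-glucosidase, stayed between -0.10 and 0.15 on all arrays. Their summed log2 values were -2.02 and -0.92 on the wild type arrays and 0.89 and 1.72 on the aln-1 arrays. The log2 differences were 1.43 for EXPA7, 1.14 for EXPA18 and 0.20 for PYK10. The part of root tissue in the differences of TPS-CIN and the other terpene synthase genes was not tested.

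Of 12 leaf markers 4 were measured, and their log2 differences were all below 0, from -0.92 to -0.12, as were those of 12701 of all 22746 probe sets. SBPASE and PRK, of the Calvin cycle, differed by -0.92 (SE 0.225) and -0.88 (SE 0.24). In both, the mutant arrays stood wholly below the wild type arrays, against 34.9% of all probe sets. LHCB4.1 and PSAE-1 differed by -0.19 (SE 0.17) and -0.12 (SE 0.20), both with overlapping arrays. Summed, the 4 lay between 0.67 and 1.17 on the wild type arrays and between -1.85 and -0.55 on the aln-1 arrays. Of 11 flower markers 2 were measured, SPL and AMS, with log2 differences of -0.11 (SE 1.19) and 1.20 (SE 0.86), and in both the arrays overlapped; AMS was at 0.13 without wild type replicate 2. None of these 9 markers passed in limma over all probe sets, of which 0.255% did. An unadjusted limma p under 0.05 was found for 2 root markers, higher, and 2 leaf markers, lower, against 11.1% and 12.3% of all probe sets. With priors fitted within brightness classes 0 of the 9 passed, against 910 of all 22746 probe sets called in either direction. Centred values give no level of these markers beyond the approximate brightness classes. By these, the 4 leaf markers were in the bright class and both flower markers in the dim class. Of the root markers, PYK10 was in the bright class and EXPA7 and EXPA18 in the middle class. Whether the labelled aerial tissue held root tissue was not tested. In such whole-organ samples, a change in the number of cells of a type and a change in the RNA of each cell cannot be told apart.

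**Figure D3:**
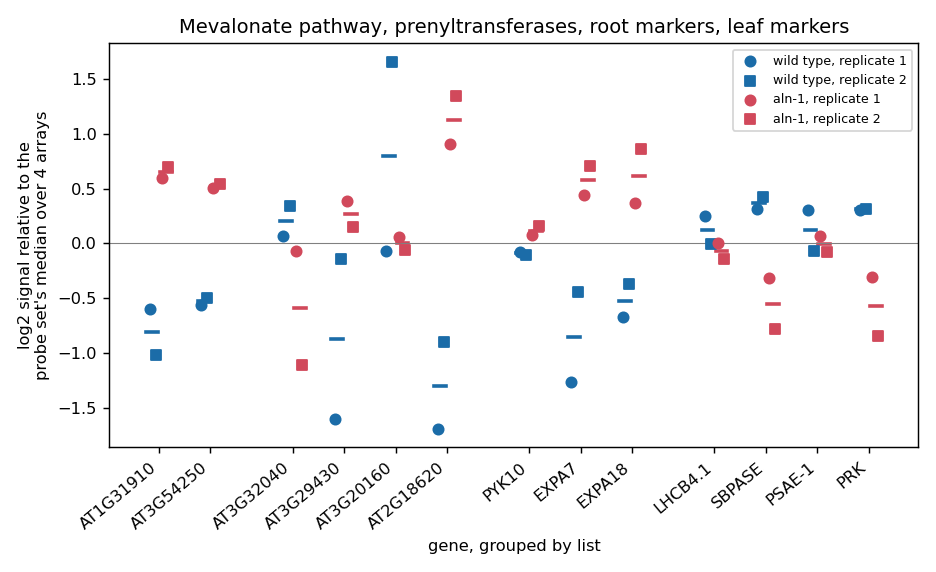
Log2 signal relative to the probe set's median over 4 arrays (vertical axis) for 2 mevalonate pathway genes, 4 prenyltransferase genes, 3 root markers and 4 leaf markers (horizontal axis, left to right, with a gap between lists). Blue points are wild type arrays and red points aln-1 arrays, circles replicate 1 and squares replicate 2, and short lines are the means of 2 arrays. Both mevalonate genes and the 3 root markers have their aln-1 arrays above the wild type arrays, SBPASE and PRK below, and the prenyltransferases go both ways.

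The array pattern most like that of TPS-CIN, by Euclidean distance over the 4 log2 values of each single-gene probe set, was that of AT1G51430 (distance 0.40). AT5G49870 (0.44) and AT5G41860 (0.46) followed. Their log2 differences were 4.098 (SE 0.14), 4.37 (SE 0.31) and 3.90 (SE 0.35). AT1G51430 and AT5G49870 were in the dim class and AT5G41860 in the middle class. Of these, limma called AT1G51430 (adjusted p = 0.0471), against 0.255% of all probe sets, and that call was lost with a robust prior. These genes were picked by the same array values, so a large difference between the genotypes was fixed by the choice. Nothing is therefore read from this call. With 4 arrays such likeness reflects little more than a difference of similar size between the genotypes.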

How the data were processed

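Transcripts of 4 samples were measured on Affymetrix ATH1 arrays, 2 per genotype, grouped by title. The authors deposited a table of log2 values. Per the submitters' processing notes the signals were made with MAS5; no source used here gives its version, its scaling or the logarithm step. In each row the middle pair of values sums to 0 within 1.40e-06, so values are centred on the probe set's median over the arrays. Base 2 is not stated and was assumed from the values without a test, and all fold changes rest on it. With base 2 assumed, the rounding steps of the values gave approximate brightness classes by the lowest array. These were bright (signals of at least 256, 10730 probe sets), middle (7589) and dim (below 16, 4427). The number of arrays limits the precision.

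Deposited values entered limma 3.58.1 under R 4.3.3 unchanged (lmFit, eBayes, two-sided). P-values were adjusted by Benjamini-Hochberg over 22746 probe sets, with no filter. The script was checked on simulated data. Standard errors are limma's. A single gene was listed for 13513 probe sets, several for 503 and none here for 8730; 13436 of the first matched the RefSeq table of TAIR10.1, used for names and gene order only. The second TPS-CIN probe set was kept because both of its genes carry that symbol. Named genes were all group members, measured genes of the lists (at most the 8 largest differences of a list by value), genes up to 2 places from a terpene synthase locus, and the 3 probe sets nearest to TPS-CIN. Members and lists were chosen with earlier results of these data known. Alternatives were array centring, a robust prior, priors within brightness classes, the dim class left out, the replicate number as a block and each array left out. No sequence was read, since no sequence table was used here.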

Additional observations from a re-analysis of the deposited data

How the results depend on the processing

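With each array left out in turn, the log2 difference of TPS-CIN was 3.87 to 4.34 and that of its shared probe set 1.82 to 2.13; AT3G25810 ranged from 0.15 to 0.99 and AT5G44630 from -0.40 to 4.42. The median of the 3 genes ranged from 0.99 to 3.98, and the number at least 2-fold apart in all remaining pairs from 1 to 2. The same count over all probe sets, 1868, became 2932 to 3966, as fewer pairs must differ. Centring arrays on their medians gave 4.16 for TPS-CIN and 2.03 for its shared probe set. The 58 limma calls over all probe sets became 0 to 0 with an array left out (2953 to 5326 at an unadjusted p under 0.05, where a genotype left with 1 array takes its spread from the other), 0 with a robust prior (5084), 0 with the replicate number as a block (4460), 82 with centred arrays, 910 with priors within brightness classes and 830 without the dim class. Calls among the 6 precursor genes went from 0 to 1 with priors within brightness classes and to 2 without the dim class, and those among all 33 listed genes from 0 to 2 and to 3. They stayed at 0 to 0 with an array left out. The block left the log2 difference of TPS-CIN at 4.104. It also ended the call of AT1G51430, the 1 named gene outside the group that was called without it. AT1G51430 was picked by its likeness to TPS-CIN in these same values. Deviations of same-numbered arrays correlated at 0.0209 over probe sets, which are not independent replicates. With 2 arrays a genotype this cannot tell whether the numbers pair the arrays, and the labels do not say. For 40 named genes outside the group, 349 values under alternatives were formed: 321 left sign and call as they were, 12 gained a call, 6 lost it (all of AT1G51430) and 10 changed sign. With arrays left out, AT3G20160 ranged from -1.66 to 0.068, MYC4 from -0.18 to 0.077 (0.0070 with centred arrays), SPL from -1.29 to 1.07, PSAE-1 from -0.31 to 0.059, AT4G16720 from -0.037 to 0.14, AT4G16745 from -0.20 to 1.22 and AT1G61670 from -0.024 to 0.24. The causes of the changes with variance priors were not tested.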
